A study of Mus musculus with 11 samples.

Results

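The genes described here are Slc4a1, Ank1, Epb42, Sptb, Epb41, Rhag, Rhd and Kel, which encode main proteins of the red cell membrane skeleton and carriers of blood group antigens. They are the rows of the merged count table that carry these 8 symbols, and all 8 were found among its 22600 genes. All 8 also passed the filter on low counts, as did 16496 genes in all. RNA came from the whole distal tibia of mice aged 24 weeks, with 4 Control and 7 BMAd-DTA mice and 1 library for each mouse. All mice were of a mixed C57BL6/SJL background and ate ad libitum. Controls carried the genotype BMAd-WT. In BMAd-DTA mice a STOP cassette at the ROSA locus is removed by Cre and diphtheria toxin A then kills the cell. The Cre is carried in the Adipoq locus and is switched on by an Osterix-FLPo allele, so that it acts mainly in bone marrow adipocytes and in a small part of their precursors. Per the methods, every mouse of the study carried both Osterix-FLPo and the Adipoq-Cre allele, controls included, and mice with these alleles have low adiponectin. The question asked of these 8 genes is whether their level in the distal tibia differs where marrow adipocytes are depleted.

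A red cell keeps its shape through a net of spectrin beneath the lipid bilayer. The net is tied to the bilayer by ankyrin, which binds the anion exchanger band 3, and by protein 4.1 at the junctions where spectrin meets actin. Rh proteins and the Kell glycoprotein sit in or beside these complexes and carry antigens known from transfusion medicine. Their mRNAs are made by erythroblasts in the marrow, and some RNA persists in young red cells after the nucleus is lost. Inherited defects of ankyrin, beta-spectrin, band 3 or protein 4.2 cause spherocytosis, and defects of protein 4.1 cause elliptocytosis.

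The promoters of these genes were searched for erythroid motifs. Whether such motifs bear on how the 8 genes varied from mouse to mouse was not tested. GATA1, the master transcription factor of erythroid cells, binds sites of the form AGATAA or TGATAA, and the same forms ending in G (AGATAG and then TGATAG) were searched too. The RefSeq promoter windows of GRCm38.p6, which flank each start site, were searched for these letters on both strands. Windows were matched for Epb42, Epb41, Rhd, Kel, Sptb and Rhag, with 3 start sites for Epb41. None was available for Slc4a1 or Ank1, which were not searched. Of these 8 windows, which do not stand for the 8 genes, 7 held a match. Among all 32851 windows of the same length, 29.8% did. The letters CACCC, the core of the sites of KLF1-like factors, were in 4 of the 8 windows on either strand and in 57.5% of all windows. The upstream matches nearest to the start sites are printed below 5′ to 3′ on the strand of the gene, with the searched letters or their complement in capitals.
Rhd, chr4:134864481-134864510, plus strand: cccggcagcctgAGATAAgacctttggcgg
Kel, chr6:41704327-41704356, minus strand: gtgttccctcacTGATAAgcaggctccacc
Kel, chr6:41704364-41704393, minus strand: cctgagaaactaAGATAAaagaggaggtga
Rhag, chr17:40811106-40811135, plus strand: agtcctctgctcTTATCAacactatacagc
The match starts 43 bases upstream of the start site in Rhd, 19 and 56 bases upstream in Kel and 31 bases upstream in Rhag. In Epb41 a match lay 184 bases upstream of 1 start site and another began at a second start site, and in Sptb the match began downstream of the start site. In Epb42 the match lay furthest upstream, at 226 bases (chr2:121037086-121037115, minus strand, gtctctatttccTTATCTcgttcaaacaga). A match is a description of the letters and not evidence of binding.

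The fitted level of all 8 genes was 25.0% to 36.8% below that of controls where marrow adipocytes were depleted, and 49.6% of all genes tested had a log2 fold change below 0. The median log2 fold change was -0.53 over the 8 genes and 0.0018 over all genes. None of the 8 passed a Benjamini-Hochberg adjusted p of 0.05 when all genes were fitted with the quasi-likelihood method of edgeR, which called 0.0788% of genes in either direction and 0.00606% lower. The unadjusted p was under 0.05 for all 8, against 8.53% of all genes for this direction. In DESeq2, the tool of the study, 5 of the 8 were called lower at an adjusted p of 0.05, against 2.64% of all genes called lower and 5.42% called either way. In no case was every BMAd-DTA mouse below every control for one of the 8, which held for 1.04% of all genes. The members were picked with earlier results known, so these counts describe them and are no separate evidence. In bulk RNA of bone, fewer erythroid cells and less of this RNA per cell cannot be told apart.

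Before the genes are taken in turn, 2 libraries need mention. Control replicate 4 was the lowest control for each of the 8 genes and lay within or below the range of the BMAd-DTA libraries. BMAd-DTA replicate 5 was the highest BMAd-DTA library for each of the 8 genes and lay within the range of the controls. Each is kept in all values unless stated, and results without Control replicate 4 are given beside the main ones. Levels are given in CPM on TMM-scaled library sizes.

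**Figure D1:**
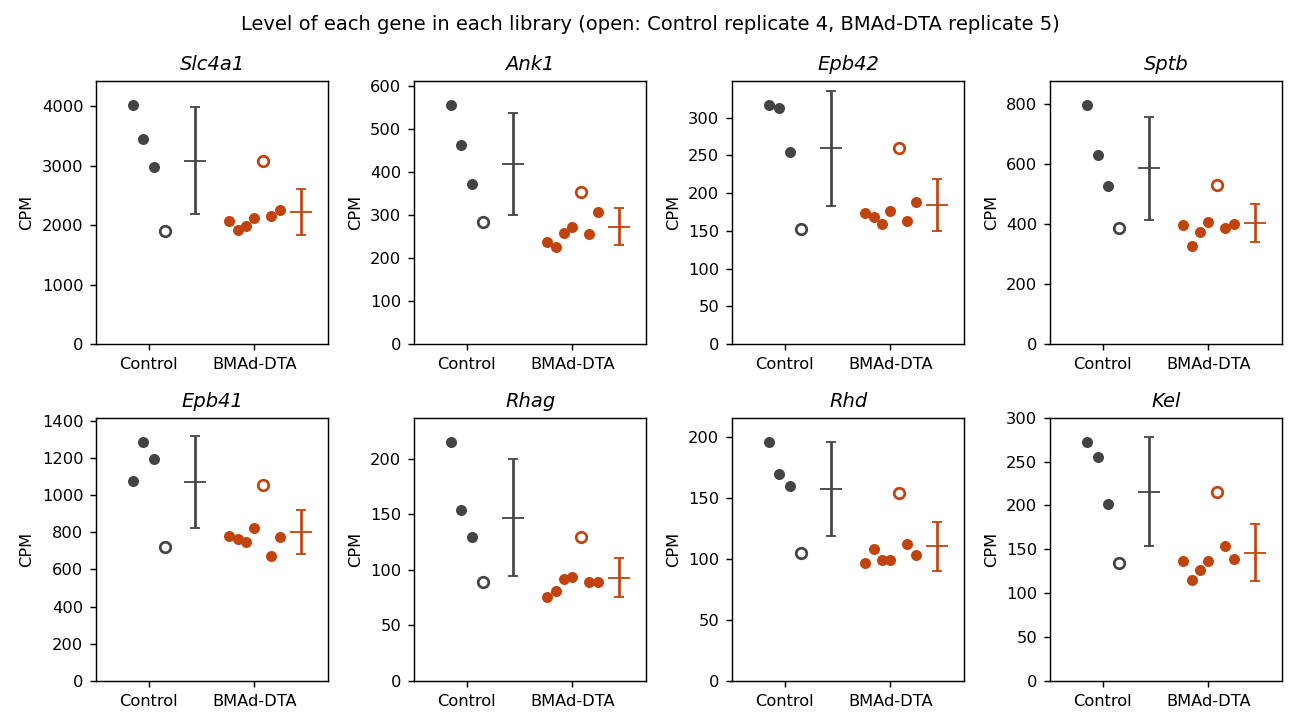
Level in CPM of the 8 genes in each of the 4 Control and 7 BMAd-DTA libraries. Each point is 1 mouse, the horizontal dash and bar are the mean and SD of a group, and open points are Control replicate 4 and BMAd-DTA replicate 5, the lowest control and the highest BMAd-DTA mouse in every panel.

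Slc4a1 encodes band 3, which exchanges chloride for bicarbonate and anchors the skeleton (chromosome 11, 102348824 to 102366203 of GRCm38). Its level was 4025, 3452, 2985 and 1897 CPM in Control replicates 1 to 4. In BMAd-DTA mice it ran from 1922 CPM to 3074 CPM with a median of 2116 CPM. The first 3 controls were above 6 of the 7 BMAd-DTA mice, while Control replicate 4 was below all of them. The mean was 3089.9 ± 902 CPM in controls (SD, n = 4) and 2225 ± 391 CPM in BMAd-DTA mice (SD, n = 7). The log2 fold change was -0.47 (standard error 0.18, edgeR adjusted p = 0.201), which did not pass.

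Ank1 encodes erythroid ankyrin, the link between band 3 and spectrin (chromosome 8, 22974844 to 23150497). It was at 556, 464, 372 and 284 CPM in Control replicates 1 to 4, and at 227 to 354 CPM with a median of 258 CPM in BMAd-DTA mice. Here 5 of the 7 BMAd-DTA mice were below every control, the most of any of the 8 genes. The mean was 419 ± 118 CPM (SD, n = 4) against 273 ± 43.6 CPM (SD, n = 7), a log2 fold change of -0.62 (standard error 0.16, edgeR adjusted p = 0.0955, DESeq2 adjusted p = 0.00738). The annotation lists 17 transcripts of Ank1, and the counts do not separate erythroid ankyrin from the short ankyrins that the same gene makes in muscle. An annotated antisense gene, Gm15816, shares 862 exonic bases with it, and pairs on the opposite strand were 0.435% of those counted on Ank1 by strand.

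Epb42 encodes protein 4.2, a relative of transglutaminases that binds band 3 and has no enzyme activity (chromosome 2, 121017891 to 121037072). Control replicates 1 to 4 had 317, 313, 254 and 153 CPM, and BMAd-DTA mice had 159.6 to 259 CPM with a median of 173 CPM. No BMAd-DTA mouse was below the lowest control. The mean was 259 ± 76.3 CPM in controls (SD, n = 4) and 184 ± 34.5 CPM where adipocytes were depleted (SD, n = 7), and the log2 fold change was -0.50 (standard error 0.18, edgeR adjusted p = 0.183).

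The skeleton itself was represented by Sptb and Epb41. Sptb encodes beta-spectrin of red cells, also made in muscle (chromosome 12, 76580488 to 76710547), and was at 798, 632, 528 and 389 CPM in Control replicates 1 to 4. BMAd-DTA mice had 326 to 531 CPM with a median of 397 CPM, and 3 of 7 were below every control. The means were 587 ± 172 CPM (SD, n = 4) and 404 ± 62.4 CPM (SD, n = 7), and the log2 fold change came to -0.54 (standard error 0.16, edgeR adjusted p = 0.127, DESeq2 adjusted p = 0.0258). Epb41 encodes protein 4.1, which strengthens the spectrin-actin junction and is also made in many cells other than red cells (chromosome 4, 131923413 to 132075321). Its controls were at 1074, 1287, 1192 and 719 CPM and its BMAd-DTA mice at 671 to 1054 CPM with a median of 772 CPM. Control replicate 2 was the highest library for Epb41, where Control replicate 1 was the highest for the other 7 genes. Epb41 had the smallest difference of the 8 (log2 fold change -0.42, standard error 0.15, edgeR adjusted p = 0.177), with 1068 ± 248 CPM in controls (SD, n = 4) and 801 ± 121 CPM in BMAd-DTA mice (SD, n = 7).

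Rhag and Rhd form the Rh complex. Rhag encodes the Rh-associated glycoprotein, a member of the ammonium transporter family that Rh antigens need to reach the surface (chromosome 17, 40811126 to 40840754). It had the largest difference of the 8. Control replicates 1 to 4 were at 216, 154, 129.997 and 89.0 CPM, and BMAd-DTA mice at 75.5 to 129.9 CPM with a median of 89.6 CPM. The lowest of the first 3 controls, replicate 3, was thus level with the highest BMAd-DTA mouse, and the other 6 BMAd-DTA mice were lower. The log2 fold change was -0.66 (standard error 0.19, edgeR adjusted p = 0.117, DESeq2 adjusted p = 0.0183), with means of 147 ± 53.0 CPM (SD, n = 4) and 92.9 ± 17.6 CPM (SD, n = 7).

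Rhd encodes the Rh polypeptide itself (chromosome 4, 134864536 to 134896172). It was at 196, 169, 159 and 105 CPM in Control replicates 1 to 4, and at 96.5 to 154 CPM with a median of 103 CPM in BMAd-DTA mice. Without replicate 4, controls lay above all 7 BMAd-DTA mice, as they also did for Ank1, Epb41 and, barely, Rhag. This sets aside the lowest control, and the share of all genes with such a gap was not computed. With replicate 4 kept, 4 of 7 BMAd-DTA mice were below every control. The means were 157 ± 38.5 CPM (SD, n = 4) and 110.3 ± 20.0 CPM (SD, n = 7). The log2 fold change was -0.51 (standard error 0.16, edgeR adjusted p = 0.129, DESeq2 adjusted p = 0.031).

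Kel encodes the Kell glycoprotein, a zinc endopeptidase that activates endothelin-3 and is joined to the XK protein (chromosome 6, 41686330 to 41704339). Control replicates 1 to 4 had 273, 255, 202 and 134 CPM and BMAd-DTA mice had 115 to 215 CPM with a median of 136 CPM. Of the 7 BMAd-DTA mice, 2 were below every control. The means were 216 ± 62.2 CPM (SD, n = 4) and 146 ± 32.7 CPM (SD, n = 7), and the log2 fold change was -0.56 (standard error 0.19, edgeR adjusted p = 0.152, DESeq2 adjusted p = 0.0422).

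The 8 genes moved as a block between mice. With the group mean taken from each, log2 CPM of the 28 pairs of genes had a Pearson correlation of 0.709 to 0.976 with a median of 0.918 over the 11 libraries, which share depth and composition, so this is a description. Each gene's level over the geometric mean of the other 7 differed between the groups by between -0.12 (Rhag) and 0.12 (Epb41) on the log2 scale. For each gene but Slc4a1, this difference was within the SD of at least 1 group. For Slc4a1 it was 0.075, with SDs of 0.046 in controls and 0.033 in BMAd-DTA mice. Together the 8 genes took 0.744%, 0.663%, 0.581% and 0.39% of all counts in Control replicates 1 to 4 and between 0.371% and 0.585% in BMAd-DTA mice.

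Levels between genes were compared per kilobase of annotated exon. Slc4a1 was far above the rest, at 632 ± 184 CPM per kb in controls (SD, n = 4) and 455 ± 79.9 CPM per kb in BMAd-DTA mice (SD, n = 7). In controls Rhd followed at 98.8 ± 24.1 CPM per kb, then Kel at 77.9 ± 22.4, Epb41 at 67.0 ± 15.6 and Rhag at 62.9 ± 22.7 CPM per kb (SD, n = 4 each). From Rhd to Rhag, neighbours overlapped within their SDs, which are spreads between mice. The genes share these mice and were not compared within each library, so the overlap does not show that their levels were alike. Sptb at 48.3 ± 14.2 and Epb42 at 47.9 ± 14.1 CPM per kb were level, and Ank1 was lowest at 31.0 ± 8.69 CPM per kb (SD, n = 4 each). The order of the 8 was the same in BMAd-DTA mice but for Sptb and Epb42, which changed places at 33.2 ± 5.14 and 33.95 ± 6.37 CPM per kb (SD, n = 7 each). The lengths are of all annotated exons joined, so genes with many alternative exons, such as Ank1 and Epb41 with 17 and 19 transcripts, are placed too low by this measure.

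The calls depended on the tool, as given above, and on Control replicate 4. Without that library, Ank1 (log2 fold change -0.76), Rhag (-0.84) and Rhd (-0.67) reached an adjusted p of 0.0487 by edgeR, so that 3 of the 8 were called lower, against 0.352% of all genes, while the adjusted p of the other 5 was 0.0508 to 0.0591, and the median over the 8 was -0.69. Without Control replicate 1 the median was -0.40 and no member passed. The edgeR adjusted p was then 0.346 to 0.558, and 6 of the 8 had an unadjusted p under 0.05. Without Control replicate 2 the median was -0.47, no member passed and 5 of the 8 had an unadjusted p under 0.05. In no alternative did any member have a higher fitted level in BMAd-DTA mice, but the alternatives reuse the same mice and are not separate checks.

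**Figure D2:**
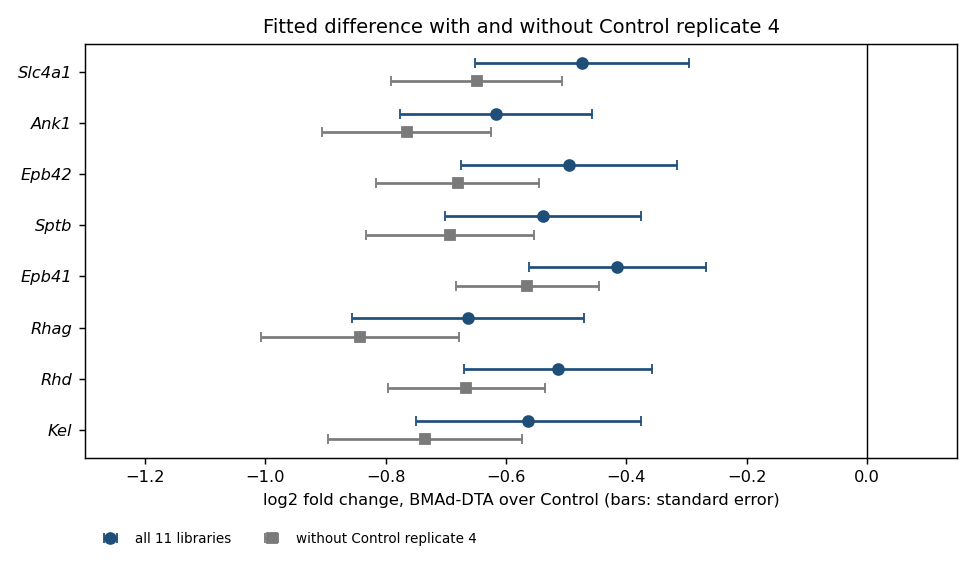
Log2 fold change of each gene (BMAd-DTA over Control, x axis) in edgeR's fit, with its standard error as a bar, over all 11 libraries and without Control replicate 4. All points are below 0, and for each gene the one without Control replicate 4 lies further from 0.

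RNA of skeletal muscle markers differed widely between libraries. The summed level of 10 muscle markers (Acta1, Ckm, Myh1, Myh4, Mylpf, Tnnt3, Tnni2, Atp2a1, Pvalb and Actn3) ran from 17.8 to 1346 CPM in controls and from 19.2 to 1040.5 CPM in BMAd-DTA mice, and none of the markers was at 0 in all libraries. All 10 had a negative log2 fold change with BMAd-DTA over Control, the median was -0.98, and none had an unadjusted p under 0.05 or passed in either tool. In 4 libraries the sum was between 17.8 and 25.6 CPM, and these were Control replicate 4 and BMAd-DTA replicates 2, 3 and 5. In the other 7 libraries, 3 controls and 4 BMAd-DTA mice, it was 177 CPM or more. Among these 7, the highest BMAd-DTA level lay under the lowest control level for all 8 genes, as it did for 6.9% of all genes tested. An edgeR fit to these 7 libraries, chosen after the data were seen, called all 8 lower with log2 fold changes of -0.94 (Rhag) to -0.64 (Epb41) and adjusted p of 0.0206 to 0.0456, against 0.531% of all genes called lower. This choice leaves out both libraries that go against the difference, Control replicate 4 and BMAd-DTA replicate 5, along with BMAd-DTA replicates 2 and 3. These calls and the lack of overlap are largely set by this choice and are not support for the difference.

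Among the 4 libraries with little RNA of muscle markers there was 1 control, and no test was made. It lay below the 3 BMAd-DTA mice for Slc4a1, Epb42 and Epb41 and within their range for the other 5 genes. Slc4a1 was at 1897 CPM in that control and at 1922 to 3074 CPM in the 3 BMAd-DTA mice, and Ank1 at 284 CPM against 227 to 354 CPM. Within the BMAd-DTA group, replicate 5, with 23.8 CPM of muscle markers, had the highest summed level of the 8 (5772 CPM) and replicate 2, with 19.2 CPM, the lowest (3709 CPM). With the muscle score as a covariate the median log2 fold change over the 8 was -0.48 and no member passed, with adjusted p of 0.188 to 0.363.

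**Figure D3:**
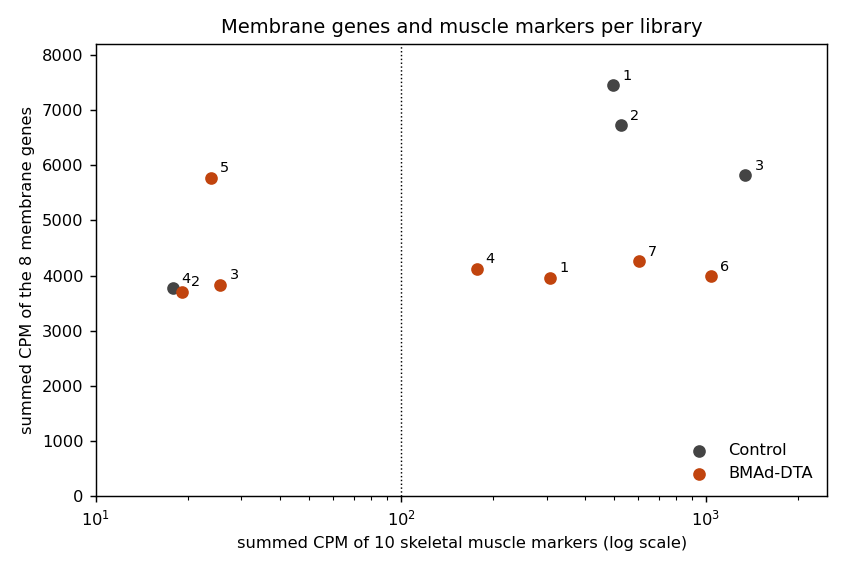
Summed CPM of the 8 membrane genes against the summed CPM of 10 skeletal muscle markers (log scale) in each library, numbered by replicate, with a dotted line at 100 CPM. Right of the line the 3 controls lie above the 4 BMAd-DTA mice, and left of it the 1 control lies among 3 BMAd-DTA mice.

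The other parts of the red cell membrane were read from lists of genes. Of 16 other genes of the skeleton and its complexes, all tested, 13 had a fitted level below that of controls and 3 above it, and the list's median log2 fold change was -0.26. None passed in edgeR's test, 9 had an unadjusted p under 0.05, and DESeq2 called 4 lower. Tpm1, a tropomyosin of many cells, had the highest log2 fold change of the list (0.27, edgeR adjusted p = 0.314). Those called by DESeq2 included Gypc, which encodes glycophorin C, a partner of Epb41's product, and Stom, which encodes stomatin, at log2 fold changes of -0.39 and -0.37. Actb, Tpm3 and Add3, which are not particular to red cells, were at -0.00043, -0.0047 and 0.038. Add1, Cd47 and Mpp1 of the same list were lower, at -0.15, -0.13 and -0.22.

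Of 16 other antigen carriers, transporters and channels, 12 had a lower fitted level and 4 a higher one, the median of the list was -0.32 (log2), and none passed in edgeR's test. An unadjusted p was under 0.05 for 7, and DESeq2 called 4 lower, namely Ermap, Xk, Aqp1 and Art4. Ermap, which carries the Scianna antigens, had the lowest value (-0.63, standard error 0.17, edgeR adjusted p = 0.106), and Slc29a1, a nucleoside transporter, the highest (0.069, adjusted p = 0.71). Xk, whose protein is bound to Kell, was at 58.4 ± 13.3 CPM in controls (SD, n = 4) and 43.5 ± 3.08 CPM in BMAd-DTA mice (SD, n = 7), a log2 fold change of -0.43 beside -0.56 for Kel.

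Other genes of the erythroid programme were read the same way. Of 11 genes of heme synthesis, 10 had a lower fitted level, and the median of the list was -0.42 (log2). None passed in edgeR's test, 8 had an unadjusted p under 0.05, and DESeq2 called 4 lower. Cpox, a late enzyme of the pathway, was lowest (-0.70, standard error 0.17, edgeR adjusted p = 0.0774), and Alad highest (0.16, adjusted p = 0.842). Alas2, the rate-limiting enzyme of erythroid heme synthesis, was at -0.22 (standard error 0.18). Of 9 tested erythroid transcription factors and receptors all 9 were lower, with a median of -0.45. In this list, too, none passed in edgeR's test, 7 had an unadjusted p under 0.05 and 6 were called by DESeq2. Tal1 was lowest (-0.50, standard error 0.13, adjusted p = 0.086) and Ldb1, a cofactor of many cells, was at -0.045 (adjusted p = 0.777). Klf1 and Ahsp were not analysed here.

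The globins had fitted log2 fold changes close to 0. Hba-a1, Hba-a2, Hbb-bs and Hbb-bt had log2 fold changes of -0.075, 0.039, -0.029 and -0.070 with standard errors of 0.18 to 0.24, none had an unadjusted p under 0.05 and none passed in edgeR's test or DESeq2. Their summed level ran from 11870.0 to 28409 CPM in controls and from 16305 to 31064 CPM in BMAd-DTA mice, lowest in Control replicate 4 and highest in BMAd-DTA replicate 5, the same 2 libraries that stood apart for the membrane genes. The summed level of the 8 genes over that of the globins was 0.326, 0.239, 0.205 and 0.318 in Control replicates 1 to 4 and 0.17 to 0.261 in BMAd-DTA mice, so the groups overlapped. With the globin score as a covariate in edgeR's fit, the median log2 fold change over the 8 was -0.52, adjusted p values were 0.0569 to 0.0857, and no member passed. Whether the difference of the 8 genes exceeds that of the globins was not tested beyond this fit. Globin reads are shared between near-identical copies, and multimapping pairs are not counted, so these levels are less certain.

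**Figure D4:**
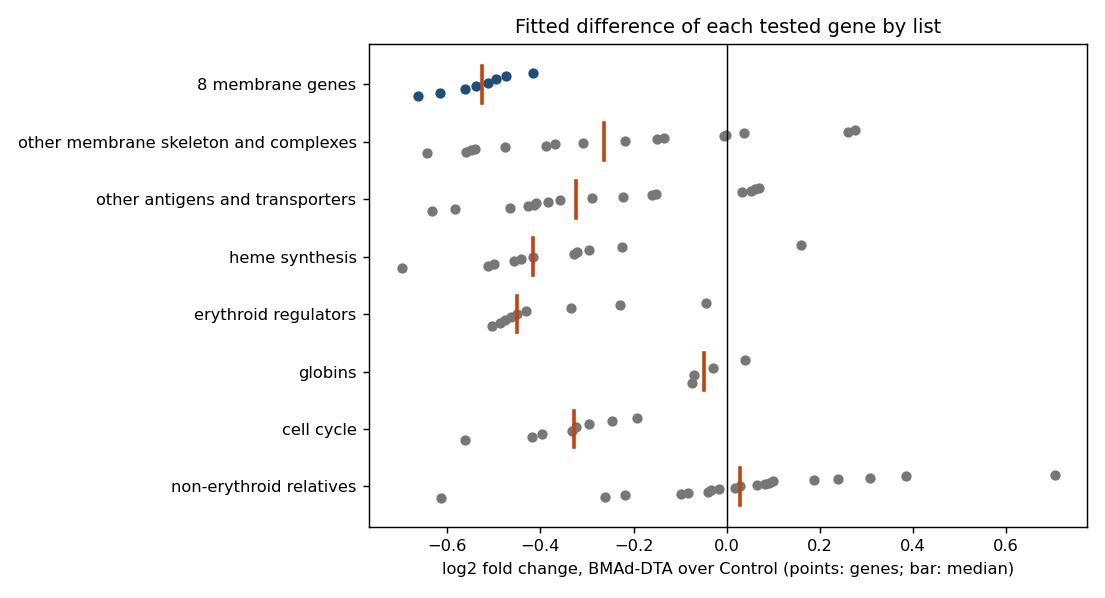
Log2 fold change (BMAd-DTA over Control, x axis) of each tested gene, 1 point a gene, in 8 lists, with the median of each list as a bar. The 8 membrane genes lie between -0.66 and -0.42, the 4 globins lie about 0, and the relatives of the 8 genes known from other cells lie on both sides of 0.

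**Figure D5:**
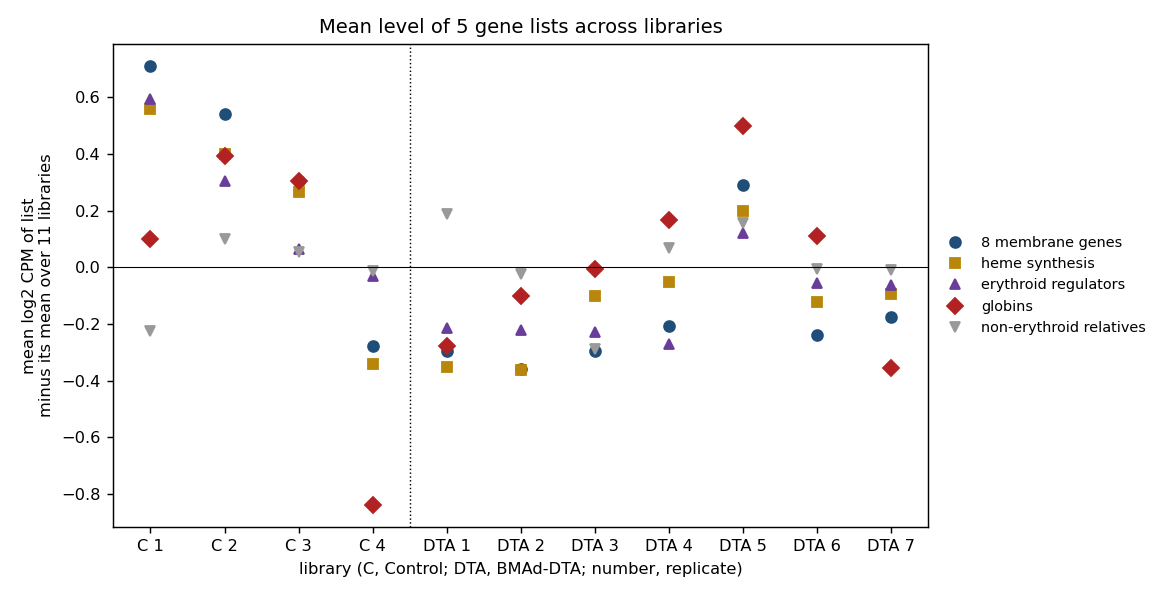
Mean log2 CPM of 5 gene lists in each library, less the mean of that list over the 11 libraries. The membrane and heme genes are above their mean in Control replicates 1 to 3 and BMAd-DTA replicate 5 and below it in the other 7 libraries, while the globins are also above their mean in BMAd-DTA replicates 4 and 6.

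With the group means removed, the mean log2 CPM of the 8 genes had a correlation over the 11 libraries of 0.979 with the other skeleton genes, 0.954 with heme synthesis, 0.904 with the other antigens, 0.869 with the erythroid regulators, 0.808 with the globins and 0.067 with the non-erythroid relatives. These are descriptions over libraries that share a composition. Among the 5 genes outside the 8 with the highest such correlation over all genes tested were March8 (0.991), Tmod1 (0.988), Btnl10 (0.983) and Brpf3 (0.982). Tmod1 encodes a cap of the short actin filaments of the skeleton, while March8 encodes a ubiquitin ligase of membrane proteins and Brpf3 a subunit of a histone acetyltransferase. Their log2 fold changes were -0.38 for March8, -0.55 for Tmod1, -0.57 for Btnl10 and -0.31 for Brpf3, with adjusted p of 0.152 to 0.243 by edgeR.

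Proliferation genes also had lower fitted levels. Each of Mki67, Top2a, Cdk1, Ccnb1, Pcna, Mcm2, Mcm5 and Rrm2 was below 0 on the log2 scale, the median of these 8 being -0.33, with an unadjusted p under 0.05 for each, no call in edgeR's test and 6 in DESeq2. Their values ran from -0.56 (Mki67, adjusted p = 0.072) to -0.19 (Pcna, edgeR adjusted p = 0.263).

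Markers of other cells of the bone were read as summed levels, and none of the listed markers was at 0 in all libraries. Markers of osteoblasts and osteocytes (7 genes) summed to 1876 to 7617 CPM in controls and to 9574 to 20671 CPM in BMAd-DTA mice. The median log2 fold change of this list was 1.0, and Alpl, the phosphatase of mineralization, passed in edgeR's test. Their lowest sum was in Control replicate 1, which had the highest summed level of the 8 membrane genes. Adipocyte markers (6 genes) summed to 592 to 1291 CPM in controls and to 208 to 823 CPM in BMAd-DTA mice (median log2 fold change -1.24, 3 with an unadjusted p under 0.05, none passing in either tool), and Control replicate 4 was the lowest control and BMAd-DTA replicate 5 the highest BMAd-DTA mouse for these as well. Neutrophil markers (8 genes) had a median of -0.018 with sums of 22267 to 25916 CPM in controls and 18336 to 26793 CPM in BMAd-DTA mice. Medians were 0.44 for B cell markers (6 genes, 1580.2 to 3475 CPM against 1243 to 2759 CPM), -0.15 for megakaryocyte markers (6 genes, 1131 to 2149.6 CPM against 971 to 1793 CPM) and -0.016 for macrophage markers (6 genes, 1296 to 1481 CPM against 1411 to 1642 CPM). No gene of these 4 lists passed in edgeR, 1 B cell and 2 macrophage genes had an unadjusted p under 0.05, and DESeq2 called 1 macrophage gene, Cd68, higher. The part of these cells in the result was not tested.

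Library totals in the merged table were 16969529 to 18637663 counts, so that the least abundant of the 8 genes, Rhag, had 1282 counts or more in every library and counting error was small beside the spread between mice. Xist had 13810 to 20260.0 counts in every library and 4 genes of the Y chromosome together 0 or 1. These counts are those of female mice in every library. The labels give no sex, and the study's legend for the figure with this RNA-Seq describes male mice. The reason for this conflict was not tested.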

How the data were processed

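Paired-end, strand-specific mRNA libraries were made from the distal tibia of 11 mice, 4 Control and 7 BMAd-DTA. The authors checked reads with FastQC 0.11.9, used STAR with its defaults for alignment to mm10 and deposited raw counts of read pairs per gene, not normalized, as a merged table and as 1 file a library. The annotation release is not given in the sources used here. Positions and exon lengths came from GENCODE M21 on GRCm38, which matched 99.9% of the identifiers without their version.

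The merged counts entered edgeR 4.0.16 under R 4.3.3 (genes kept by filterByExpr, TMM scaling, glmQLFit and glmQLFTest, genotype as the only term, two-sided, Benjamini-Hochberg adjustment over 16496 genes, threshold 0.05). Standard errors are the log2 fold change over the square root of F. Log2 CPM used a prior count of 2. The study used DESeq2, which was run as an alternative (1.42.0), beside limma-voom (limma 3.58.1), 2 scalings, no filter, the stranded and unstranded counts of each library's file, a table without globin and mitochondrial genes, muscle and globin scores as covariates, and each mouse left out in turn. A fit to the 7 libraries with over 100 CPM of muscle markers was added after the data were seen. The edgeR and DESeq2 steps were tested on simulated data. The acceptance limits of that test were loosened after edgeR recovered fewer of the changed genes than first required, so it was not passed on limits set in advance. The lists were the other skeleton genes, other antigens and transporters, non-erythroid relatives, heme synthesis, globins, erythroid regulators, cell cycle, and markers of muscle, neutrophils, B cells, megakaryocytes, macrophages, bone cells and adipocytes. Genes named are the 8 members, those past the threshold and the highest and lowest of each list, and the 5 most correlated genes, and lists of cell markers are given by their medians and sums in place of their highest and lowest genes. The genes DESeq2 called and those set beside a member, such as Xk, Alas2 and Actb, were named after their values were seen. Some results that this rule would name are not reported here. Members and lists were chosen with earlier results of these data known. Replicate numbers are names in accession order, and p-values measure the spread between these mice.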

Additional observations from a re-analysis of the deposited data

Results flagged for a closer look

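In BMAd-DTA mice, the level of 7 of the 8 genes in replicate 5 stood apart from the other 6 mice by Dixon's criterion for 7 samples, while no control library did so in its group of 4. The values of BMAd-DTA replicate 5 were 259 CPM for Epb42, 531 CPM for Sptb, 1054 CPM for Epb41, 3074 CPM for Slc4a1, 129.9 CPM for Rhag, 154 CPM for Rhd and 215 CPM for Kel. The next highest BMAd-DTA mouse had 188, 408, 824, 2259, 94.0, 112 and 154 CPM. Ank1 was also highest in this mouse, at 354 CPM, but did not meet the criterion. Of 16 groups examined, chance flags about 1 in 20, and the 8 genes vary together, so the 7 flags are not separate observations.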

How the results depend on the processing

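Each of the 8 genes had a negative log2 fold change in all 22 alternatives, 176 values in all, of which 160 lay on the same side of the threshold as in edgeR's fit over all mice. The alternatives refit the same mice, in whole or in part, so they are not separate checks. Of the 22, 1 was not planned, the fit to the 7 libraries with muscle, and it gave 8 of the values that crossed the threshold. The count of all genes called, 13, was 845 in DESeq2, 20 in limma-voom, 20 with size factors, 3 with the muscle score and 103 over the 7 libraries with muscle, and 0 to 292 with 1 mouse left out (292 without Control replicate 3, 89 without Control replicate 4, 8 and 3 without BMAd-DTA replicates 3 and 4, and 0 without Control replicates 1 or 2 or BMAd-DTA replicates 1 or 6). The count of members called, 0, was 5 in DESeq2, 8 over the 7 libraries with muscle and 0 to 3 with 1 mouse left out, and the median log2 fold change then ran from -0.69 to -0.40. DESeq2 called Ank1 (-0.62), Sptb (-0.54), Rhag (-0.67), Rhd (-0.52) and Kel (-0.57). The 7 libraries with muscle gave -0.75 for Epb42, -0.79 for Ank1, -0.71 for Sptb, -0.64 for Epb41, -0.70 for Slc4a1, -0.94 for Rhag, -0.77 for Rhd and -0.78 for Kel, all called, but this choice was made after the data were seen and leaves out both libraries that go against the difference. With 1 mouse left out, Ank1 ran from -0.76 to -0.45, Rhag from -0.84 to -0.42, Rhd from -0.67 to -0.39 and Sptb from -0.69 to -0.35, each furthest from 0 without Control replicate 4 and nearest without Control replicate 1. Slc4a1 ran from -0.65 to -0.32, Epb42 from -0.68 to -0.38, Kel from -0.73 to -0.43 and Epb41 from -0.56 to -0.31. The cause of these differences was not tested beyond the smaller number of mice. No paired analysis was made, since each library came from a different mouse and the labels give no pairing. Counts of calls depended on the tool as well as on single mice, with 4 controls, and the share of either in the few calls of edgeR was not tested.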

Other observations

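Relatives of the 8 genes that are known mainly from other cells gave a different picture. Of 19 tested (22 listed), 8 had a fitted level below that of controls and 11 above it, the median log2 fold change was 0.029, and none passed in edgeR's test, while 2 had an unadjusted p under 0.05 and were called higher by DESeq2. They were Phex and Epb41l2. Phex, an endopeptidase of osteoblasts and osteocytes from the same family as Kel, had the highest value of the list (log2 fold change 0.70, standard error 0.19, adjusted p = 0.0992 in edgeR's test and 0.00661 in DESeq2), at 74.8 ± 21.4 CPM in controls (SD, n = 4) and 122 ± 21.2 CPM in BMAd-DTA mice (SD, n = 7), beside -0.56 for Kel. Epb41l2, a relative of Epb41 found in many tissues, was at 105 ± 11.8 CPM in controls (SD, n = 4) and 129.9 ± 12.9 CPM in BMAd-DTA mice (SD, n = 7) (0.31, standard error 0.088, adjusted p = 0.113 in edgeR's test), beside -0.42 for Epb41. The spectrins of other cells, Sptan1 and Sptbn1, were at 0.081 and -0.034, beside -0.54 for Sptb. Other relatives had lower fitted levels. Tgm2 was at -0.26 (edgeR adjusted p = 0.356), beside -0.50 for Epb42. Mme was at -0.22 (edgeR adjusted p = 0.435), beside -0.56 for Kel. The relatives set beside a member were chosen after their values were seen. The lowest value was that of Epb41l4a (-0.61, standard error 0.31), a gene at about 1 CPM. Differences between relatives were not tested.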
